A study of Homo sapiens with 37 samples.

Results

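The SLC25 genes encode the mitochondrial carriers, and 43 of the 32055 rows of the count table were members of this family. Members were the rows whose Ensembl identifier maps to the symbol SLC25A followed by digits, leaving out pseudogenes, antisense genes, SLC25A37 and SLC25A38. Of the 43, 28 passed the filter on low counts, as did 10661 of all genes. The libraries came from K562, an established human erythroleukemia cell line. In the 26 KO libraries the cells had received a plasmid with Cas9 and 1 of 2 gRNAs against ZBTB7A, a transcriptional repressor, and in the 11 Control libraries the same plasmid with no gRNA. GFP-positive single cells were sorted in both groups and grown into clones. The comparison asks which transcripts differed between ZBTB7A KO and Control cells. The labels give a barcode of 6 bases for each library and no clone, gRNA or day, so p-values measure the spread between libraries, which may in part be repeat libraries of the same clone.

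Mitochondrial carriers sit in the inner membrane, which is otherwise closed to charged metabolites, and each exchanges or imports a particular set of substrates. They bring in ADP, phosphate, pyrimidine nucleotides, coenzyme A, glutathione and iron, return ATP and citrate to the cytosol, and move the malate and aspartate that carry reducing equivalents across the membrane. In erythroid cells, carriers also serve heme synthesis and iron-sulfur cluster formation. A few members lie elsewhere: SLC25A17 is in the peroxisome membrane and SLC25A46 in the outer mitochondrial membrane.

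A Control library held 563235 to 4710809 unique molecular identifiers (UMIs, each a captured transcript molecule), median 3518944, and a KO library 1070250 to 4270901, median 2030965. GTTTAT, a Control, was the shallowest. The KO library GGCCAC lay within the Control range in 80.3% of the 1085 genes called between the groups, against 21.7% to 42.5% in the other KO libraries, so its member values are given where they matter. ZBTB7A transcript had a mean of 5.82 log2 CPM in Control and 5.95 in KO (log2 fold change 0.12 ± 0.09, SE, adjusted p = 0.331, edgeR), but counts from the 3′ end of a transcript do not show whether its coding sequence was edited. The erythroid markers GATA1, KLF1 and HBG1 were detected in all 37 libraries, and the granulocytic marker CEBPE was at 0 in 32 libraries. Of 9 erythroid markers tested, 2 were higher at an adjusted p below 0.05 (EPOR, called at a log2 fold change of 0.97, and TAL1, 0.39) and 3 lower (TFRC, -0.37, KLF1, -0.22, and GATA1, -0.19). Of the lymphoid markers CD3D was called lower (-1.85) while CD3E was at 0 in 32 and CD79A in 29 libraries. Their part in the carrier results was not tested. Barcode composition was uneven between the groups: 12 KO and 8 Control libraries had at most 2 G or C bases (AT-rich), whereas 12 KO and 1 Control library were GC-rich.

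Most carrier transcripts differed little between ZBTB7A KO and Control cells. SLC25A24, a calcium-regulated carrier that exchanges ATP-Mg for phosphate, was the only member of the 28 called, and it was higher in KO. A call needed a log2 fold change beyond 0.5 in either direction besides an adjusted p under 0.05. Without the fold criterion, SLC25A24, SLC25A13, SLC25A16, SLC25A11 and SLC25A42 were higher and SLC25A5, SLC25A3 and SLC25A21 were lower. The 2 most abundant carriers, SLC25A5 (ADP/ATP) and SLC25A3 (phosphate), were thus among those that fell. SLC25A21, which also fell, had a mean of 60.5 CPM in Control, between SLC25A11 (65.3 CPM) and SLC25A24 (36.6 CPM), which rose.

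Called members made up 3.57% of those tested, against 10.2% of all tested genes. By direction, 1 member (3.57%) was called higher against 6.65% of all genes, and 0 were called lower against 3.53%. DESeq2 and limma-voom also called 0 lower, and at an unadjusted p below 0.05 edgeR gave 5 higher and 5 lower. With the adjusted p alone, 8 members (28.6%) passed against 33.8% of all genes: 5 higher (17.9%, background 17.7%) and 3 lower (10.7%, background 16.2%). With library size as the only normalization the split was 7 higher and 1 lower. In edgeR's fit the family's shares were thus near or below the background. In no tested member were the KO and Control libraries fully apart, as they were in 0.281% of all tested genes. The median absolute log2 fold change was 0.12 over the members and 0.152 over all tested genes, and 26 of the 28 members lay within 0.3 of 0. Signed, the median was 0.03 over the members and -0.0046 over all tested genes.

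**Figure D1:**
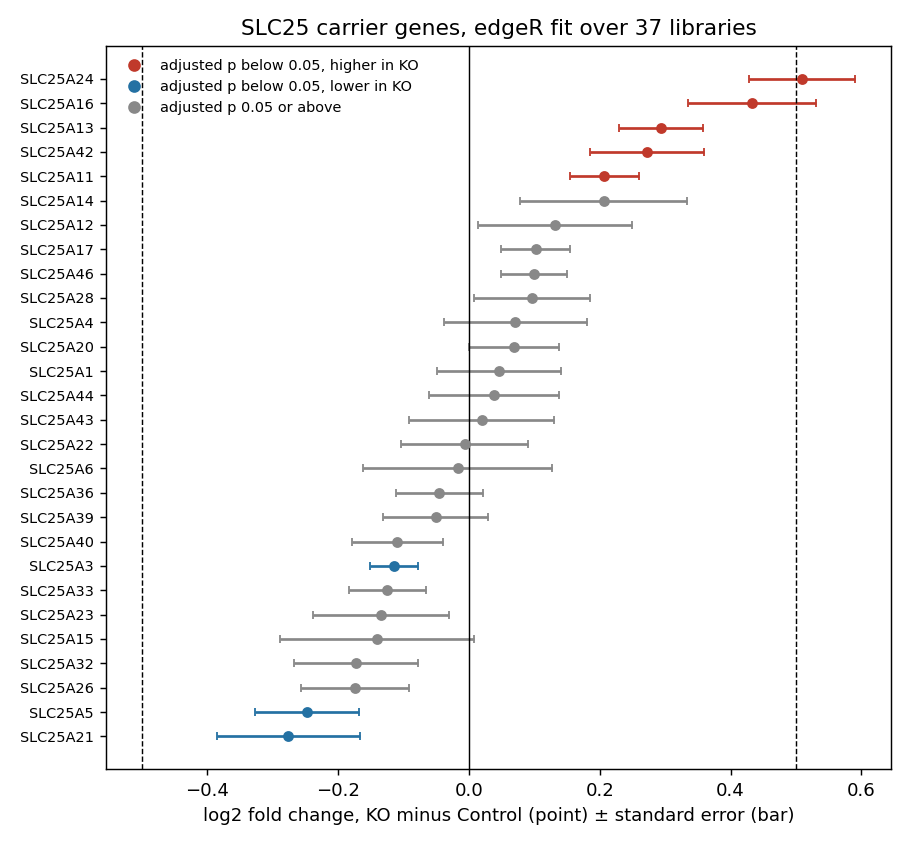
Log2 fold change (KO minus Control, horizontal axis) of the 28 tested SLC25 genes, each point an edgeR estimate with a bar of 1 standard error, and dashed lines at the fold threshold of 0.5. SLC25A24, at 0.51, is the only point past a dashed line, and 26 of the 28 points lie within 0.3 of 0.

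The promoter sequences of 4 members that passed the test are shown, 3 that rose and the most abundant that fell, because ZBTB7A acts at the level of transcription. They are RefSeq promoters on GRCh38.p14, each running from 250 bases before to 50 bases after a transcription start, read 5′ to 3′ on the strand of the gene. Capitals mark GACCC or its reverse complement GGGTC, letters known from the core of the sequence that ZBTB7A binds. They were chosen for display after the fold changes were seen. For SLC25A24, which has promoters at 2 starts, the promoter with more matches is printed.
SLC25A24 (chr1:108200294-108200593, minus strand): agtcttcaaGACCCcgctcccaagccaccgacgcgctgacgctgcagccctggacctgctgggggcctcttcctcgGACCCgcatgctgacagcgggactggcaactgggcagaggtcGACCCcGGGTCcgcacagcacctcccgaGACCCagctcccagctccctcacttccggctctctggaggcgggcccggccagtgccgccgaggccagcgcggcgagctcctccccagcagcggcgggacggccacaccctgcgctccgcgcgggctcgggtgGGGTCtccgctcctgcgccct
SLC25A13 (chr7:96322049-96322348, minus strand): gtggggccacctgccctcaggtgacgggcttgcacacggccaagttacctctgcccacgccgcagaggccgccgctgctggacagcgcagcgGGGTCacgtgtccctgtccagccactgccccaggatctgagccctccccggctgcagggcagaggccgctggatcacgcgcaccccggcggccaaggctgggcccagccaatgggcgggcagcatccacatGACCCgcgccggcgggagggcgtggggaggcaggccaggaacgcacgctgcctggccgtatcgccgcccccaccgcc
SLC25A11 (chr17:4939997-4940296, minus strand): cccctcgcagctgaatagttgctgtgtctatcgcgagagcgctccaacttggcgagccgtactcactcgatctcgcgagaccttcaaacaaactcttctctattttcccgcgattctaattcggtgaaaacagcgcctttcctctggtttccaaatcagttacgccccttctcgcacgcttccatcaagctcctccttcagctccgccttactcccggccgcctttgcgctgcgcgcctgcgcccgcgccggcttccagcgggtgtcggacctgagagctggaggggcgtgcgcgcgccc
SLC25A5 (chrX:119468194-119468493, plus strand): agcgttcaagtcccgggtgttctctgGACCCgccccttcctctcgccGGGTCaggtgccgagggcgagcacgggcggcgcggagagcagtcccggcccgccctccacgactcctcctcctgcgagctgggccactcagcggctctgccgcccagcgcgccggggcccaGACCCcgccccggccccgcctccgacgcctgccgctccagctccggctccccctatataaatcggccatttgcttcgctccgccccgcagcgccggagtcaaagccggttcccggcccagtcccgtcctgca

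The SLC25A24 promoter held 6 matches, the SLC25A13 promoter 2, the SLC25A11 promoter 0 and the SLC25A5 promoter 3. SLC25A24 and SLC25A13, which rose, and SLC25A5, which fell, thus held the letters, and SLC25A11 rose without them in this window. Among members that passed but are not printed, SLC25A3 and SLC25A21, which fell, held 3 and 2 matches. SLC25A42, which rose, held 1, so the letters were found at members that moved in either direction. The other SLC25A24 promoter, at chr1:108192786-108193085 on the minus strand, held 1 match. A promoter was found for 37 members, with 47 promoters in all, and 33 of the 47 (70.2%) held at least 1 match, against 47.6% of the 35116 promoters in the table. Only 33 promoters in the table (0.094%) held 6 or more. Most of the 5 letters are G or C, and the member promoters ran from 41.0% to 80.3% G or C, with 73.7% in the printed SLC25A24 promoter. Base composition was not matched between the members and all promoters, and its part in these shares was not tested. A match of 5 letters is a description of the sequence and does not show binding. No promoter was matched for SLC25A16, SLC25A30, SLC25A32, SLC25A35 and SLC25A41.

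Levels spanned a wide range. Each count is taken at the 3′ end and does not depend on transcript length, but reads that also map to a copy elsewhere may be missing from a count, which was not tested and bears on SLC25A6 and the other members with pseudogenes. SLC25A5 was the most abundant member at a mean of 1052 CPM in Control, followed by SLC25A3 at 380 CPM and SLC25A39, a glutathione carrier, at 284 CPM. In Control the log2 CPM of these 3 did not overlap: the lowest SLC25A5 value was 9.91, SLC25A3 ranged from 8.42 to 8.73, and the highest SLC25A39 value was 8.37. SLC25A4 and SLC25A1 came next, both at 148 CPM, and their ranges overlapped. The least abundant tested members in Control were SLC25A15, the ornithine carrier, at 4.87 CPM, SLC25A6 at 10.1 CPM and SLC25A14 at 15.1 CPM. Summed over the members, a library held a median of 2973 CPM of carrier transcripts in Control (2652 to 3084) and 2825 CPM in KO (2299 to 3049), so the groups overlapped.

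**Figure D2:**
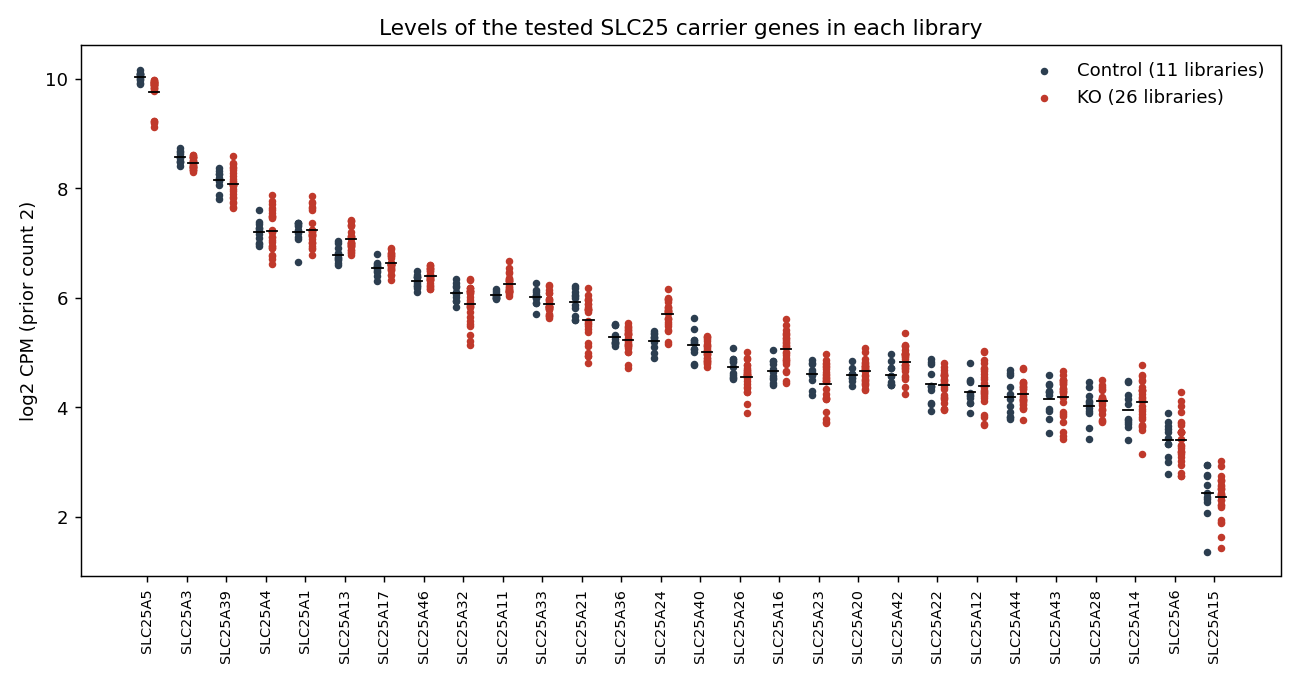
Levels in log2 CPM (vertical axis) of the 28 tested SLC25 genes in order of Control mean, each point a library (11 Control, 26 KO) and each line a group mean. SLC25A5 lies highest near 10 log2 CPM with 5 KO libraries below the others, SLC25A24 is shifted upward in KO, and the groups overlap in every gene.

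Of the adenine nucleotide and phosphate carriers, 9 had a row and 6 were tested: 1 rose, 2 fell and 3 did not pass the test (median log2 fold change -0.07). SLC25A24 (chr1:108134043-108200849, minus strand, GRCh38) ranged from 4.90 to 5.40 log2 CPM in Control (median 5.26) and from 5.16 to 6.17 in KO (median 5.76). Of the 26 KO libraries, 23 lay above the highest Control library. The 3 that did not were CCAACC (5.16), TTATTG (5.20) and ATTCTA (5.39), while GGCCAC, at 5.53, was above the Control range. The mean rose from a Control value of 5.22 ± 0.16 (SD, n = 11) to a KO value of 5.71 ± 0.24 log2 CPM (SD, n = 26), or from 36.6 to 52.2 CPM. The log2 fold change was 0.51 ± 0.08 (SE, adjusted p = 4.3e-06, edgeR), which sits at the fold threshold: it fell below 0.5 with limma-voom (0.49), with barcode GC as a covariate (0.49), without the filter on low counts (0.49), and when the Control library ATATAG, the Control library TACTAT, the KO library ATCAAA, the KO library CCCACG or the KO library CTGCGG was left out, with a lowest value of 0.48. The adjusted p stayed below 0.05 in each of these fits. Across libraries the SLC25A24 level had a Pearson r of -0.52 with log2 total UMIs among the 26 KO and of -0.31 among the 11 Control libraries, a description in which level and total share the same counts, and the part of depth in the difference was not tested. In RNA from many cells, more transcript per cell and more cells with the transcript cannot be told apart.

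Of the other calcium-regulated carriers of this kind only SLC25A23 was tested, and it did not pass. SLC25A23 had a mean of 4.61 ± 0.20 log2 CPM in Control and 4.42 ± 0.36 in KO, and its log2 fold change was -0.13 ± 0.10 (SE, adjusted p = 0.335, edgeR). SLC25A25 had 0 to 13 UMIs per library and was not tested. Among the UMIs of these 3 paralogs, SLC25A24 took a median of 59.3% in Control (55.4% to 65.2%) and 70.8% in KO (57.3% to 82.0%), and SLC25A23 37.8% and 27.0%. The shares overlapped between the groups. SLC25A41, another member of the adenine nucleotide and phosphate class, had 0 to 20 UMIs per library. Its mean was 3.13 CPM in Control and 1.67 CPM in KO, with 17 of 26 KO libraries below the lowest Control. It was too low for the filter and lies 2299 bases downstream of SLC25A23 on the same strand of chromosome 19.

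**Figure D3:**
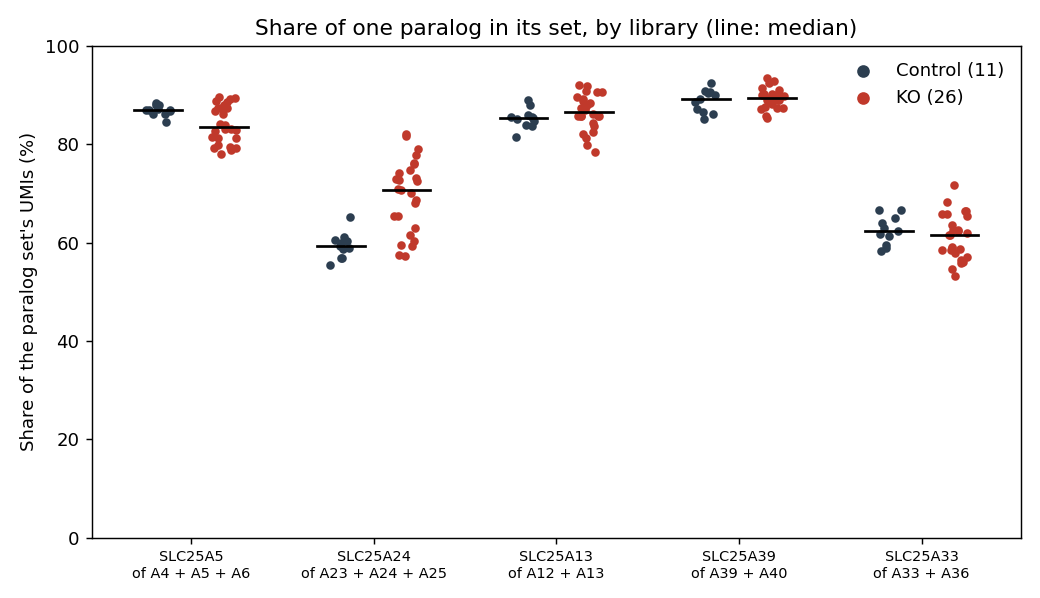
Share of the UMIs of a paralog set held by the named gene (%, vertical axis from 0 to 100) in each library, with a line at the group median. The SLC25A24 share is higher in most KO libraries (median 70.8% against 59.3%), the SLC25A5 share is spread more widely in KO (78.1% to 89.6%) than in Control (84.6% to 88.4%), and the groups overlap in the other 3 sets.

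SLC25A5 (chrX:119468422-119471396, plus strand), which exchanges cytosolic ADP for ATP made in the matrix, ranged from 9.91 to 10.17 log2 CPM in Control (median 10.07) and from 9.13 to 9.98 in KO (median 9.89). The KO libraries did not form a continuous range. CCAACC (9.13), GGCGTC (9.19), TAATGA (9.22), TAAAGT (9.23) and CCCCGT (9.24) lay together, and the other 21 started at 9.79, a gap of 0.55 that was the widest in any tested member. In all, 14 KO libraries lay below the lowest Control, which includes 9 of the 21. The mean was 10.04 ± 0.08 log2 CPM in Control (SD, n = 11) and 9.77 ± 0.29 in KO (SD, n = 26) (log2 fold change -0.25 ± 0.08, SE, adjusted p = 0.0151, edgeR). With each of the 37 libraries left out in turn, the fold change stayed between -0.26 and -0.22 and passed the test.

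SLC25A43, a member with no well known substrate, lies 13943 bases upstream of SLC25A5 and was 3.74 log2 CPM in GGCGTC and 3.48 in CCCCGT, in the lower part of the KO range of 3.42 to 4.67. In CCAACC (4.26) and TAAAGT (4.34) it was near the KO median of 4.29, and in TAATGA it was 3.84. SLC25A14, farther along the long arm of the X chromosome, ranged from 3.15 in GGCGTC to 3.87 in TAATGA over the same 5 libraries, all below the KO median of 4.15. Both are sparse, with 6 to 106 and 11 to 97 UMIs per library, and over all libraries neither passed the test (log2 fold changes 0.02 and 0.21, adjusted p = 0.927 and 0.218, edgeR).

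The other ADP/ATP carriers kept different levels. SLC25A4, the form of heart and muscle, ranged from 6.95 to 7.60 log2 CPM in Control and from 6.61 to 7.87 in KO. In KO 5 libraries lay above and 7 below the Control range, so its log2 fold change of 0.07 ± 0.11 (SE, adjusted p = 0.661, edgeR) averages over libraries that differed in both directions. SLC25A6, which lies in the pseudoautosomal region of the X chromosome, had the largest SD of any tested member among the KO libraries, 0.41 log2 CPM against 0.34 in Control, at 8 to 53 and 4 to 55 UMIs per library. SLC25A5 took a median of 87.0% of the ADP/ATP carrier UMIs in Control and 83.5% in KO, SLC25A4 12.1% and 15.8%, and SLC25A6 0.82% and 0.99%. Reads of SLC25A6 that also map to a copy elsewhere may be missing, so its share may be too low, which was not tested. SLC25A31, the testis form, had 6 UMIs over all libraries. Processed pseudogenes share sequence with this group, and their rows held 198 UMIs for SLC25A5 (0.223% of its own 88936), 16 for SLC25A3 (0.0464%) and 24 for SLC25A6 (2.56%).

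SLC25A3 (chr12:98593591-98606379, plus strand), which imports the phosphate for ATP synthesis and also copper, ranged from 8.42 to 8.73 log2 CPM in Control (median 8.56) and from 8.31 to 8.61 in KO (median 8.46). There were 11 KO libraries below the Control range and 0 above it. The mean was 8.57 ± 0.10 (SD, n = 11) and 8.46 ± 0.09 log2 CPM (SD, n = 26). This was the smallest change to pass the test, at a log2 fold change of -0.11 ± 0.04 (SE, adjusted p = 0.0150, edgeR). It did not pass with library size as the only normalization (-0.08, adjusted p = 0.0711), with barcode GC as a covariate (-0.08, adjusted p = 0.0738), or without the Control library AAGATT (adjusted p = 0.0521). Nor did it pass edgeR's test without the filter on low counts (-0.13, adjusted p = 0.0672) or among AT-rich barcodes (-0.09, adjusted p = 0.149).

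All 4 carriers of citrate, dicarboxylates and acylcarnitines with a row were tested, of which 1 rose, 1 fell and 2 did not pass. SLC25A11 (chr17:4937130-4940053, minus strand), which exchanges 2-oxoglutarate for malate in the malate-aspartate shuttle, ranged from 5.98 to 6.16 log2 CPM in Control (median 6.03) and from 6.04 to 6.67 in KO (median 6.19). It had the narrowest Control range of these 4, and 16 of 26 KO libraries lay above it. The mean rose from a Control value of 6.04 ± 0.06 (SD, n = 11) to a KO value of 6.25 ± 0.16 log2 CPM (SD, n = 26), a log2 fold change of 0.21 ± 0.05 (SE, adjusted p = 0.00209, edgeR). GGCCAC, at 6.13, was within the Control range.

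SLC25A21 (chr14:36677921-37172606, minus strand), which carries 2-oxoadipate from lysine and tryptophan breakdown, ranged from 5.59 to 6.22 log2 CPM in Control (median 5.9996) and from 4.81 to 6.18 in KO (median 5.76). There were 12 KO libraries below the Control range and 0 above it. The mean was 5.92 ± 0.23 (SD, n = 11) and 5.59 ± 0.39 log2 CPM (SD, n = 26), and the log2 fold change was -0.28 ± 0.11 (SE, adjusted p = 0.0477, edgeR). Of the 8 members that passed, this had the highest adjusted p, and it did not pass in 22 of the 37 fits that left out a library, with a highest adjusted p of 0.112.

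SLC25A1, which exports the citrate used for cytosolic acetyl-CoA, had nearly equal means, 7.21 ± 0.21 (SD, n = 11) and 7.24 ± 0.29 log2 CPM (SD, n = 26), and the log2 fold change was 0.05 ± 0.09 (SE, adjusted p = 0.752, edgeR). Yet 6 KO libraries lay above the whole Control range of 6.66 to 7.38: TGTTTA (7.85), TTAGTT (7.76), ATTACT (7.73), TAAGAT (7.66), ATCAAA (7.64) and CCCTGG (7.61). The other 20 reached at most 7.37. SLC25A20, which imports acylcarnitines for fatty acid oxidation, had a log2 fold change of 0.07 ± 0.07 (SE, adjusted p = 0.487, edgeR).

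The same 6 KO libraries stood at the edge of other members. Their SLC25A13 values, 7.32 to 7.42 log2 CPM, were the 6 highest, with a next value of 7.21. Their SLC25A21 values, 4.81 to 5.19, were the 6 lowest, with a next value of 5.38. SLC25A32, which carries folate and FAD, had its 3 lowest KO values in ATTACT (5.14), TAAGAT (5.21) and ATCAAA (5.32), below a next value of 5.50 in TTAGTT. In these 6 libraries 12 to 16 of the 28 tested members lay outside the Control range. This count includes SLC25A1, by which the libraries were picked, and also SLC25A13 and SLC25A21. Over all KO libraries the count ran from 3 in AAAACT to 16 in TTAGTT with a median of 8.5. GGCCAC had 4. The 6 libraries held 1225590 to 2052701 UMIs, against a median of 2030965 over all KO libraries, while the 5 with low SLC25A5 held 1348241 to 3126653. The part of depth in these levels was not tested. The SD was larger in KO than in Control for 22 of the 28 members (78.6%), near the 72.2% of all tested genes. The labels give no clone, so whether such libraries share a clone cannot be told.

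**Figure D4:**
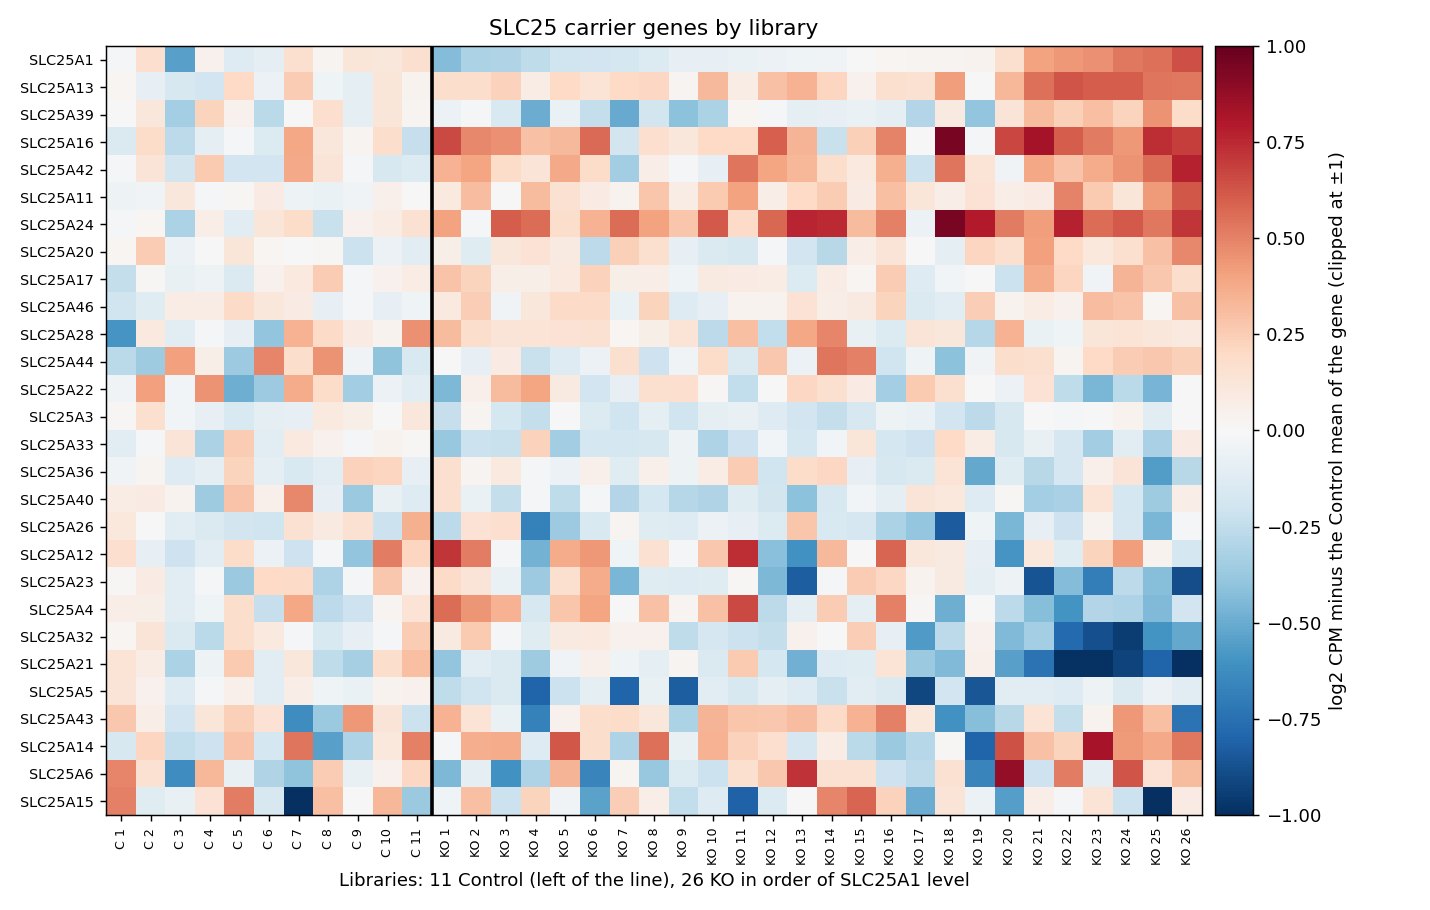
Log2 CPM of the 28 tested SLC25 genes minus the Control mean of each gene (colour, clipped at ±1) in 11 Control libraries, left of the line, and 26 KO libraries in order of SLC25A1 level. The 6 rightmost KO libraries, with SLC25A1 at 7.61 log2 CPM or more, are also those highest in SLC25A13 and lowest in SLC25A21, and SLC25A5 is low in 5 other KO libraries.

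**Figure D5:**
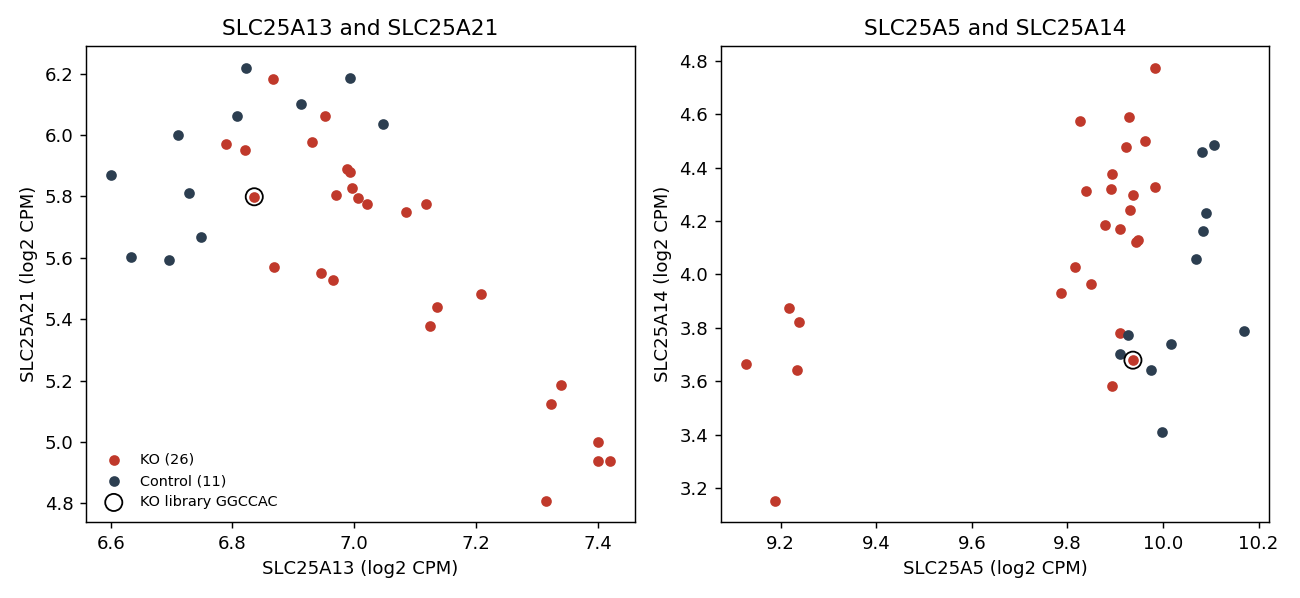
Level of a carrier against that of another in each library (both axes in log2 CPM; 26 KO and 11 Control points), with the KO library GGCCAC circled. On the left, 6 KO libraries lie apart at SLC25A13 above 7.3 and SLC25A21 below 5.2, and on the right, 5 KO libraries lie apart at SLC25A5 below 9.3.

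Of the amino acid carriers, 7 had a row and 5 were tested: 1 rose, 0 fell and 4 did not pass (median log2 fold change 0.04). SLC25A13 (chr7:96120220-96322147, minus strand), a calcium-stimulated exchanger of aspartate for glutamate that also serves the malate-aspartate shuttle, ranged from 6.60 to 7.05 log2 CPM in Control (median 6.75) and from 6.79 to 7.42 in KO (median 7.002). There were 11 of 26 KO libraries above the Control range and 0 below it. The mean rose from a Control value of 6.79 ± 0.14 (SD, n = 11) to a KO value of 7.07 ± 0.19 log2 CPM (SD, n = 26), and the log2 fold change was 0.29 ± 0.06 (SE, adjusted p = 0.000456, edgeR). Leaving out any library kept the fold change between 0.28 and 0.32.

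Its paralog SLC25A12, which makes the same exchange, differed by 0.13 ± 0.12 on the log2 scale (SE, adjusted p = 0.412, edgeR), with 4 KO libraries above and 4 below the Control range. SLC25A13 took a median of 85.4% of the UMIs of this pair in Control and 86.5% in KO. The glutamate carrier SLC25A22 had a log2 fold change of -0.01 ± 0.10 (SE, adjusted p = 0.975, edgeR) and no KO library outside the Control range, and it took 96.9% and 93.2% of the UMIs it shares with the untested SLC25A18. SLC25A15, the ornithine carrier, had 1 to 27 UMIs per library and a log2 fold change of -0.14 ± 0.15 (SE, adjusted p = 0.493, edgeR). SLC25A44, which carries branched-chain amino acids, was at 0.04 ± 0.10 (SE, adjusted p = 0.810, edgeR). SLC25A29, a carrier of basic amino acids, was at 0 in 8 Control and 17 KO libraries.

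The carriers of nucleotides, cofactors, iron and glutathione were the largest class, with 12 members, of which 10 were tested: 2 rose, 0 fell and 8 did not pass (median log2 fold change -0.05). Both that rose are linked to coenzyme A in the matrix. SLC25A16 (chr10:68477998-68527523, minus strand) ranged from 4.41 to 5.05 log2 CPM in Control (median 4.65) and from 4.45 to 5.62 in KO (median 5.12). There were 14 KO libraries above the Control range, and CTGCGG (4.45) and TAAAGT (4.49) were the lowest. The log2 fold change was 0.43 ± 0.10 (SE, adjusted p = 0.000671, edgeR), from a Control mean of 4.67 ± 0.20 (SD, n = 11) to a KO mean of 5.06 ± 0.30 log2 CPM (SD, n = 26).

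SLC25A42 (chr19:19063994-19113030, plus strand), which exchanges coenzyme A for adenine nucleotides, ranged from 4.40 to 4.97 log2 CPM in Control (median 4.57) and from 4.25 to 5.37 in KO (median 4.91). There were 9 KO libraries above and 2 below the Control range. The log2 fold change was 0.27 ± 0.09 (SE, adjusted p = 0.0133, edgeR), from a Control mean of 4.59 ± 0.20 (SD, n = 11) to a KO mean of 4.84 ± 0.25 log2 CPM (SD, n = 26). SLC25A17, the peroxisomal carrier of coenzyme A and related cofactors, had a log2 fold change of 0.10 ± 0.05 (SE, adjusted p = 0.132, edgeR).

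The other tested members of this class had log2 fold changes from -0.17 to 0.10. SLC25A26, which imports S-adenosylmethionine, was at -0.17 ± 0.08 (SE, adjusted p = 0.0980, edgeR), with 8 KO libraries below the Control range and 0 above it. SLC25A33 and SLC25A36, the pyrimidine nucleotide carriers, were at -0.13 ± 0.06 and -0.05 ± 0.07 (SE, adjusted p = 0.0951 and 0.642, edgeR), and SLC25A33 took 62.4% of their UMIs in Control and 61.6% in KO. SLC25A39 and SLC25A40, the glutathione carriers, were at -0.05 ± 0.08 and -0.11 ± 0.07 (SE, adjusted p = 0.670 and 0.232, edgeR), and SLC25A39 took 89.3% and 89.5%. SLC25A32 was at -0.17 ± 0.10 and SLC25A28, the iron carrier mitoferrin-2, at 0.10 ± 0.09 (SE, adjusted p = 0.161 and 0.430, edgeR). The NAD carrier SLC25A52 was too low for the filter.

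Of 3 members of the uncoupling protein type, SLC25A14 was tested, and SLC25A27 and SLC25A30 were too low. Of 8 members with a little known substrate, SLC25A43 and SLC25A46 were tested. SLC25A46, which shapes the mitochondrial network, had a log2 fold change of 0.10 ± 0.05 (SE, adjusted p = 0.122, edgeR), with 7 KO libraries above the Control range and 0 below it. The other 6, SLC25A34, SLC25A35, SLC25A45, SLC25A47, SLC25A48 and SLC25A53, were too low for the filter. Over the 15 members that did not pass the filter, total UMIs in all 37 libraries ranged from 2 (SLC25A27, SLC25A47 and SLC25A52) to 324 (SLC25A30), and in a fit without the filter only SLC25A41 among them passed edgeR's test (log2 fold change -0.91, adjusted p = 0.00757).

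Among AT-rich barcodes alone (12 KO and 8 Control libraries), the log2 fold changes of the members that rose were 0.51 for SLC25A24, 0.37 for SLC25A13, 0.40 for SLC25A16, 0.25 for SLC25A11 and 0.24 for SLC25A42. For those that fell they were -0.24 for SLC25A5, -0.09 for SLC25A3 and -0.38 for SLC25A21. All 8 kept their direction, but in this smaller set SLC25A42 (adjusted p = 0.152), SLC25A5 (0.0514), SLC25A3 (0.149) and SLC25A21 (0.0663) did not pass edgeR's test. The GC-rich barcodes hold only 1 Control library and give no value of their own. Without the KO library GGCCAC, SLC25A24 was at 0.52, and the counts of 1 called member, 5 higher and 3 lower were as before.

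Genes around the carriers were also tested, and their counts are read against the 17.7% of all tested genes that were higher and the 16.2% that were lower at an adjusted p below 0.05. Counts called are read against the 10.2% of all tested genes that were called, and in lists this short 0 called says little. Of 12 tested genes of the pathway that inserts carriers into the inner membrane, 3 fell and 0 rose: the small chaperones of the intermembrane space TIMM10, TIMM13 and TIMM8B, at log2 fold changes of -0.26, -0.20 and -0.18, with 0 called. Of 18 tested transporters of other families in the mitochondrial membranes, 1 rose (SFXN5, 0.28) and 6 fell, among them the outer membrane channels VDAC2 (-0.17) and VDAC3 (-0.29), again with 0 called. Of 19 tested enzymes that use carried metabolites, 1 rose (NNT, the proton-driven transhydrogenase, 0.30) and 6 fell, among them the malate-aspartate shuttle enzymes MDH1 (-0.23) and GOT2 (-0.17). NMNAT3, an enzyme of NAD synthesis, was called lower at -1.74 ± 0.32 (SE, adjusted p = 5.1e-05, edgeR), with 24 of 26 KO libraries below the Control range.

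Of 3 tested carrier proteins that bear other symbols, 1 was higher and 2 were lower, where 33.8% of all tested genes passed. UCP2, an uncoupling protein of the same family that exports C4 metabolites, was called lower, from a Control value of 6.78 ± 0.16 (SD, n = 11) to a KO value of 6.23 ± 0.25 log2 CPM (SD, n = 26), with 20 of 26 KO libraries below the Control range and a log2 fold change of -0.55 ± 0.08 (SE, adjusted p = 3.2e-07, edgeR). The outer membrane proteins MTCH1 (0.27) and MTCH2 (-0.13) moved in opposite directions. Of the 3 tested carriers of the malate-aspartate shuttle, SLC25A13 and SLC25A11 were thus higher and SLC25A12 did not pass the test, and of its enzymes MDH1 and GOT2 were lower. GOT1 and MDH2 did not pass the test (log2 fold changes -0.14 and 0.00, adjusted p = 0.218 and 0.991, edgeR).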

How the data were processed

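K562 libraries (26 KO, 11 Control) were made by bulk SCRB-seq. The authors mapped reads to hg38 with STAR (2.6.0a per the submitters' processing notes), used zUMIs (version not given in the sources used here) to count UMIs on the genes of Ensembl GRCh38.84 and deposited UMI counts without normalization. Counts are molecules at transcript 3′ ends and do not depend on length. Symbols and positions came from GENCODE 44 on GRCh38, promoters from RefSeq. All 37 columns were matched to labels by barcode.

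Counts of all genes were fitted by edgeR 4.0.16 under R 4.3.3 (its filter on low counts as set by default, TMM, robust quasi-likelihood, no covariate), adjusted by Benjamini-Hochberg over 10661 genes. Calls required a log2 fold change beyond 0.5 in either direction and an adjusted p under 0.05. Levels are log2 CPM after TMM with a prior count of 2. The fit was tested on simulated counts. SLC25A2, SLC25A10 and SLC25A51 were not analysed here. Correlations between members were computed but are not given, since some KO libraries lay apart from the others in some members. Whether the KO libraries form clusters was not tested. Members, lists and tests were chosen with earlier results of these data known. Members are named, apart from an item not reported here, with full values for those that passed the test, the 3 most and 3 least abundant, paralog sets and the largest KO spread, and called genes and counts for the other lists. Genes of these lists that were not called, SLC25A41, the members near SLC25A5, the libraries set apart and the promoter letters were picked after their values were seen. Alternatives were limma-voom (limma 3.58.1), DESeq2 1.42.0, other size factors and filters, barcode composition and leaving out libraries.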

Additional observations from a re-analysis of the deposited data

How the results depend on the processing

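The count of called members was 1 and became 0 with limma-voom and with barcode GC as a covariate, and ranged from 0 to 1 with each library left out, which also holds for the count higher in KO. The count lower in KO was 0 in all of these. Without a filter on low counts, 43 members were tested and the called member was SLC25A41, lower at a log2 fold change of -0.91 (adjusted p = 0.00757, edgeR), so that 0 were called higher and 1 lower. Among AT-rich barcodes 2 were called, SLC25A24 and SLC25A53, the latter lower at -0.79 (adjusted p = 0.0236, edgeR), so that 1 was called lower. Members with an adjusted p below 0.05 numbered 6 to 8 in every alternative. With library size alone they were 7 higher and 1 lower, with SLC25A17 (adjusted p = 0.0428) and SLC25A46 (0.0424) gained and SLC25A3 and SLC25A21 lost. SLC25A33 passed among AT-rich barcodes, with barcode GC as a covariate and without the Control library ATGAAT.

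Fold changes close to 0 turned direction. SLC25A22 became 0.0353 with limma-voom, 0.0060 with DESeq2, 0.0256 with library size alone, 0.0156 with the GC covariate and 0.0095 without GTTTAT. SLC25A6 became 0.0182 with library size alone and 0.0140 with the GC covariate. SLC25A43 became -0.00038 with the GC covariate and -0.0052 without GTTTAT. Of 279 alternative values of single members apart from leaving out each library, 256 kept their direction and side of the threshold. With a prior count of 0.5 the SLC25A24 means were 5.19 log2 CPM in Control and 5.69 in KO, and with 5 they were 5.26 and 5.74.

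No paired analysis was possible because the labels give no replicate number that links KO and Control libraries. The labels give neither clone nor gRNA, and barcode composition differs between the groups beyond what the AT-rich comparison covers. The 15 members under the filter rest on at most 324 UMIs over all libraries, which limits what can be detected in them.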
